A study of Mus musculus with 2 samples.

Results

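Arterial endothelial cells of mouse brains carrying a glioblastoma graft are described here from single-cell RNA-seq. A cell was taken as arterial when it passed an endothelial gate, had at least 1 UMI of at least 2 of the 5 genes Bmx, Gkn3, Sema3g, Hey1 and Fbln5, and had more of these than of the 5 venous genes Vwf, Slc38a5, Nr2f2, Il1r1 and Ackr1. A UMI is a molecular tag that counts 1 captured RNA molecule. The endothelial gate asked for at least 4 of the 6 genes Cldn5, Ly6c1, Pecam1, Flt1, Cdh5 and Slco1a4, and for at most 1 of 5 mural cell genes. This rule found 299 arterial cells among 1619 endothelial cells and 13466 kept cells, 164 of them in the cKO library and 135 in the control library. The endothelial cells also held 410 venous cells, chosen by the mirrored rule, and 883 remaining cells with at most 1 arterial and at most 1 venous marker, and the last 27 lay between the classes.

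Both hosts were C57BL/6 mice with intracranial KR158 cells, a mouse glioblastoma line. The cKO host was Cx3cr1 CreER/+ Plxnb2fl/fl, with 2 floxed alleles of Plxnb2, the gene of the guidance receptor Plexin-B2. The control host was Cx3cr1 CreER/+ Plxnb2 fl/+, with 1 floxed allele, although its library title calls it WT. Both carried the same CreER allele and both were given Tamoxifen at 100 mg/kg every other day, starting 3 days before the graft, until harvest at 8 weeks. Cre expressed from the Cx3cr1 locus acts in microglia and other myeloid cells, so the endothelial cells are neighbours of the targeted cells and not the target. The tissue within about 1 mm of the injection site was dissociated with papain, cleared of debris over Percoll and of red blood cells by lysis, and run on 10x Genomics 3′ v3.1 chemistry. The labels do not say whether a library came from 1 mouse or from several.

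Arteries carry blood from the heart at high pressure and pulsatile flow, and their endothelium is held in its arterial state largely by Notch signalling, with Hey1 as a Notch target. In the brain, endothelial gene expression changes gradually along the vessel tree, from arteries and arterioles through capillaries to venules and veins. Capillary endothelium carries most of the nutrient transporters of the blood-brain barrier, whereas arterial endothelium is known for genes of the elastic vessel wall and of vessel tone.

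The libraries held 63785513 UMIs for cKO and 64756949 for control. The deposited control matrix holds 10942 barcodes of at least 500 UMIs each, whereas the cKO matrix is unfiltered and has 20.6% of its UMIs in barcodes below that number. Both were filtered alike here, which left 5398 cKO and 8068 control cells. Arterial cells were deep, with a median of 10452 UMIs and 3536 genes in cKO and 8380 UMIs and 3146 genes in control, against 4970 (cKO) and 4587 (control) UMIs in remaining endothelial cells. The summed arterial cells held 1882676 UMIs in cKO and 1377393 in control, where 3 counts, taken as the floor, correspond to 1.59 (cKO) and 2.18 (control) CPM (UMIs per 1000000 UMIs of the summed class). The libraries shared 8 barcodes among kept cells and 0 among arterial cells. With 1 library per genotype there is no test between genotypes. Genotype and library cannot be told apart, and every 95% interval covers counting error only.

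Plxnb2 itself was barely detected in arterial cells, as 18 UMIs in 7 of the cKO cells and 27 UMIs in 9 of the control cells. These are 9.56 (cKO) and 19.6 (control) CPM, with a log2 ratio of -1.04 (interval -1.98 to -0.12), at a level too low to be counted as measured. A 3′ count can lie outside the deleted exons, so this value does not check the deletion. Other plexins stood higher in the same cells. Plxnd1, the vascular receptor of semaphorin 3E, had 112 CPM in cKO and 95.1 in control, and Plxna2 had 129 in cKO and 128 in control.

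Arterial cells made up 18.7% (16.2 to 21.4, exact binomial) of endothelial cells in cKO and 18.2% (15.5 to 21.2) in control. The difference, cKO minus control, was 0.46 percentage points, with an interval for counting error of -3.44 to 4.32. Of all kept cells they were 3.04% in cKO and 1.67% in control, a pair that also carries the differing yield of every other cell type. Further cells met the arterial marker rule but failed 1 part of the endothelial gate. Of these, 84 cKO and 39 control cells failed only the mural limit, and 23 cKO and 44 control cells failed only the endothelial minimum.

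The values that chose the cells are given as a description. Bmx, a cytoplasmic tyrosine kinase of arterial endothelium (chrX:164192842-164258193, mm10), had 234 CPM in cKO arterial cells and 245 in control arterial cells. Gkn3, a gastrokine family gene that marks brain arterial endothelium in the mouse, had 292 in cKO and 489 in control. Sema3g, a secreted semaphorin, had 200 in cKO and 206 in control, and the transcriptional repressor gene Hey1 had 146 in cKO and 163 in control. Fbln5, an elastic fibre protein gene, hardly took part, at 11.2 in cKO and 15.2 in control. The rule fixed the presence of these genes, so they do not check the label, and the genes outside the rule are given further on. The full set of Bmx, Gkn3, Sema3g and Hey1 was the commonest combination, found in 25% of cKO and 25.9% of control arterial cells. Among cKO cells 72 had exactly 2 markers, 48 had 3 and 44 had 4 or 5, and among control cells the numbers were 54, 41 and 40. Vwf, the von Willebrand factor gene, counted as venous in the rule, yet 78% of cKO and 76.3% of control arterial cells held it, at 286 (cKO) and 291 (control) CPM. The venous class leaned on this gene. Without Vwf among the venous markers it held 133 cKO and 79 control cells, against 235 and 175 with it. Arterial cells then numbered 183 in cKO and 142 in control.

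The values on each side of the threshold are given as a description, since the bins count the same markers. Cells just outside, with exactly 1 arterial marker and at most 1 venous marker, numbered 153 in cKO and 141 in control. Bmx stood at 22.5 CPM in those cKO cells, and at 86 in cKO cells with 2 markers, 222 with 3 and 403 with 4 or 5. In control it stood at 28.9 just outside, 147 with 2, 212 with 3 and 355 with 4 or 5. Gkn3 went from 5.2 just outside to 661 with 4 or 5 markers in cKO and from 12.2 to 899 in control. Hey1 differed less across the threshold, with 113 just outside and 123 at 2 markers in cKO, and 117 and 142 in control. Depth moved with marker number: the median was 6064 UMIs just outside, 7902 with 2 markers, 11142 with 3 and 13542 with 4 or 5 in cKO, and 4869, 6502, 10688 and 10068 in control. Its part in the detection of markers was not tested.

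Outside the rule, known arterial genes such as Mgp, Edn1, Stmn2, Jag2, Alpl, Unc5b and Tm4sf1 were higher in arterial cells than in both remaining and venous endothelial cells, in each library. UMIs were summed over the cells of a class and library and given as CPM. A gene was counted as higher or lower when the sums differed at least 1.5-fold and the interval of the ratio excluded equality, among measured genes with at least 50 CPM on average and 20 UMIs in total. Over remaining cells, 100 (2.89%) genes were higher and 97 (2.8%) lower of 3466 in cKO, and 131 (3.81%) and 103 (2.99%) of 3442 in control. Over venous cells, 109 (3.14%) were higher and 117 (3.37%) lower of 3471 in cKO, and 171 (4.98%) and 126 (3.67%) of 3433 in control. The control venous sum also held much RNA of Ttr, a choroid plexus gene. Ttr stood at 36049 CPM there, and 7 of 175 cells passed 1% Ttr. In cKO venous cells it stood at 0.63 CPM, and 0 cells passed 1%. Of 3234 genes measured in both libraries, 57 (1.76%) were higher and 49 (1.52%) lower in arterial than in remaining cells in both, and 2 (0.0618%), Enpp2 and Tcim, went opposite ways and are named because of that. In control, 1246 of the 1481 Enpp2 UMIs of arterial cells came from 1 cell. Against venous cells 70 (2.17%) were higher and 61 (1.89%) lower of 3232. The cells were chosen by markers, so these contrasts are descriptions. Of the 30 genes on a list of arterial genes that the rule does not use, 16 were measured in both libraries. Of these, 11 were higher than in remaining cells and 10 higher than in venous cells, and 0 were lower in either. This list, like the others here, was chosen with earlier results of these data known. Its counts and medians are therefore a description and not an independent check of the label. The list median over remaining cells was 0.88 in cKO and 0.74 in control on the log2 scale, beside 0.04 for all genes in each library. Lists by function held fewer calls over remaining cells in both libraries: 1 of 5 measured Notch genes, 2 of 13 BMP and TGF-beta genes and 1 of 11 flow-responsive and vasoactive genes were higher. Of 13 measured elastic fibre and matrix genes, 3 were higher and 1 lower.

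Of the matrix genes, Ltbp4, Mgp and Timp3 were the ones higher over remaining cells in both libraries. Mgp, matrix Gla protein, an inhibitor of arterial calcification (chr6:136872435-136875823, mm10), had 416 CPM in arterial cells of cKO and 335 in those of control, against 26.4 (cKO) and 13.8 (control) in venous cells and 25.5 (cKO) and 21.7 (control) in remaining cells. Its log2 ratio over remaining cells was 4.03 (3.68 to 4.39) in cKO and 3.94 (3.53 to 4.39) in control, the largest of the genes named here. Fbln2, a fibulin of elastic and basement membranes, had 71.2 in arterial cells of cKO and 99.5 in those of control, against 7.23 (cKO) and 20.1 (control) in remaining cells, below the minimum mean in cKO. Timp3, a matrix-bound metalloproteinase inhibitor, had 1523 (cKO) and 1343 (control) in arterial cells, against 725 (cKO) and 742 (control) in remaining cells. Ltbp4, which tethers latent TGF-beta to the matrix, had 872 (cKO) and 900 (control) in arterial cells, against 563 (cKO) and 581 (control) in remaining cells. Eln, the elastin gene, was too low to be measured, at 37.7 (cKO) and 45.7 (control) CPM in arterial cells. Ccn2, a matricellular growth factor gene, went the other way, with 71.2 in cKO arterial and 34.8 in control arterial cells, against 140 (cKO) and 80.3 (control) in remaining cells.

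Edn1, the gene of the vasoconstrictor endothelin 1, was among the most abundant of these genes, with 1413 CPM in arterial cells of cKO and 1231 in those of control, against 734 (cKO) and 556 (control) in remaining cells. Tm4sf1, a tetraspanin-like membrane protein gene of endothelium, had 1373 (cKO) and 1252 (control) in arterial cells, against 624 (cKO) and 594 (control) in remaining cells. Alpl, tissue-nonspecific alkaline phosphatase, had 242 (cKO) and 393 (control) in arterial cells, against 30.2 (cKO) and 63 (control) in venous cells and 73.7 (cKO) and 159 (control) in remaining cells, and so separated the classes within each library while differing between libraries. Glul, glutamine synthetase, had 1894 (cKO) and 1750 (control) in arterial cells, against 927 (cKO) and 979 (control) in remaining cells. Slc6a6, the taurine transporter gene, had 2952 (cKO) and 2081 (control) in arterial cells, against 1713 (cKO) and 1343 (control) in remaining cells. Cdkn1c, a cyclin-dependent kinase inhibitor gene, had 167 (cKO) and 214 (control) in arterial cells, against 85.1 (cKO) and 90.7 (control) in remaining cells. Stmn2, a tubulin-binding protein gene known mainly from neurons, had 275 (cKO) and 260 (control) in arterial cells, against 90.9 (cKO) and 52.7 (control) in remaining cells, and was the main source of neuronal list UMIs in arterial cells.

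In the Notch pathway the ligand gene Jag2 was the member that passed against both other classes, with 250 CPM in arterial cells of cKO and 214 in those of control, against 118 (cKO) and 96.1 (control) in venous cells and 135 (cKO) and 110 (control) in remaining cells. The receptor gene Notch1 passed only against venous cells, with 260 (cKO) and 233 (control) in arterial cells against 162 (cKO) and 143 (control) in venous cells. Dll4, the ligand best known from arterial and tip cells, had 47.8 (cKO) and 63.9 (control) in arterial cells against 35.1 (cKO) and 43.9 (control) in remaining cells, and Jag1 had 55.2 (cKO) and 63.9 (control) in arterial cells against 38.6 (cKO) and 34.3 (control) in remaining cells. Neither was called higher in both libraries. Efnb2, the ephrin ligand gene that marks arteries against veins, was called higher in control, while its cKO mean lay below the minimum. It had 70.6 (cKO) and 98 (control) CPM in arterial cells, against 14.8 (cKO) and 10.6 (control) in venous cells. Unc5b, a netrin receptor of arterial endothelium, had 122 (cKO) and 99.5 (control) in arterial cells, against 21.4 (cKO) and 23.4 (control) in venous cells. Sox17, a transcription factor of arterial fate, had 358 (cKO) and 291 (control) in arterial cells, against 234 (cKO) and 160 (control) in venous cells and 217 (cKO) and 201 (control) in remaining cells, and was not called over remaining cells in control. Tgfb2, a TGF-beta ligand gene, had 387 (cKO) and 436 (control) in arterial cells, against 165 (cKO) and 194 (control) in venous cells and 215 (cKO) and 197 (control) in remaining cells.

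Some genes at lower levels also had wide gaps between the classes. Vegfc, the lymphangiogenic growth factor gene, had 52.6 CPM in arterial cells of cKO and 66.1 in those of control, against 5.67 (cKO) and 10.1 (control) in venous cells and 3.44 (cKO) and 5.44 (control) in remaining cells. Egfl8, a secreted EGF-repeat protein gene, had 58.4 (cKO) and 55.9 (control) in arterial cells, against 5.98 (cKO) and 4.14 (control) in venous cells. Both lay below the minimum mean and are given as values. Tmem100, a target of BMP9 and ALK1 signalling in endothelium, had 73.8 (cKO) and 90 (control) in arterial cells, against 5.67 (cKO) and 13.8 (control) in venous cells and 17.2 (cKO) and 34.3 (control) in remaining cells, also below the minimum mean in cKO. Rad54b, a DNA repair gene by its known role, had 104 (cKO) and 106 (control) in arterial cells, against 9.76 (cKO) and 16.6 (control) in venous cells and 31.7 (cKO) and 31.4 (control) in remaining cells. Some textbook arterial genes were too low to be counted as measured. Gja5, a gap junction gene, stood at 1.59 CPM in cKO arterial cells and 2.18 in control arterial cells, which is 3 UMIs in each, and Gja4 stood at 25 in cKO and 29 in control. Gja5 was not detected in venous or remaining cells of either library, and Gja4 was not detected in control venous cells.

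**Figure D1:**
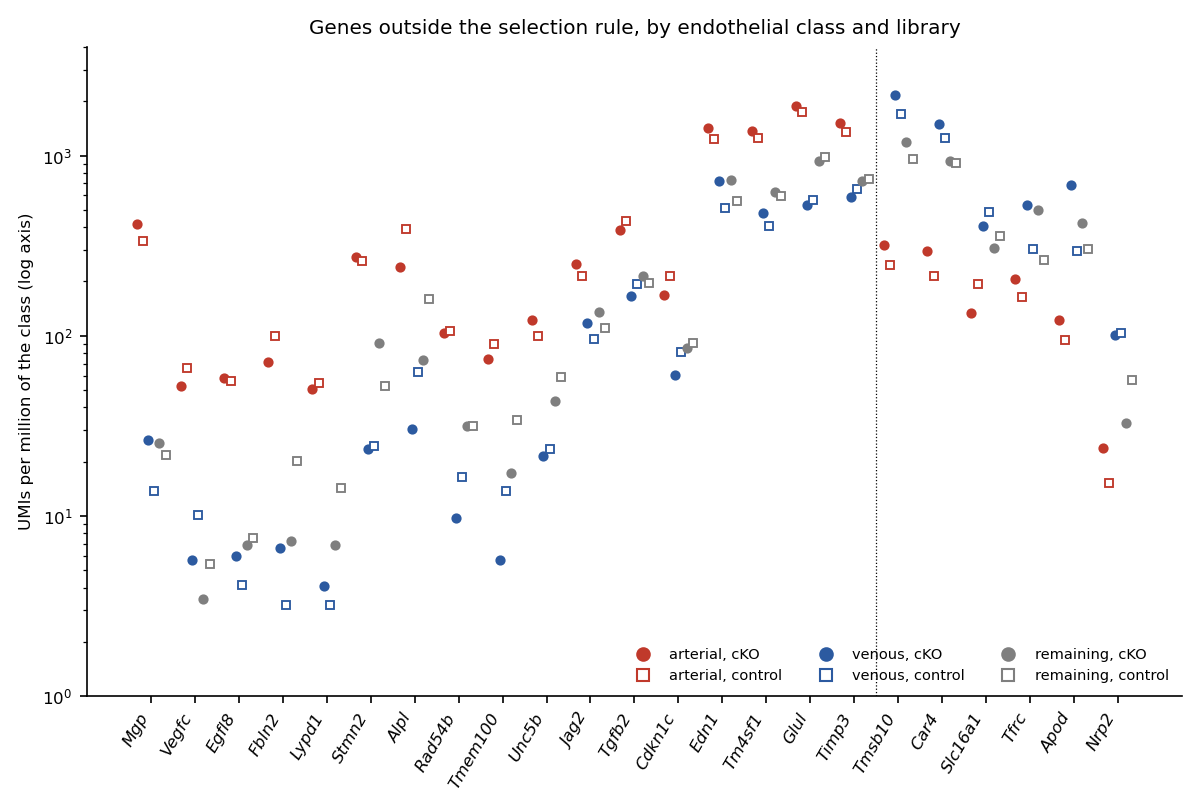
Levels of 23 genes outside the selection rule, in CPM of the summed class on a log axis. Circles are cKO and open squares control, in arterial (red), venous (blue) and remaining (grey) endothelial cells; left of the dotted line arterial cells are highest, for Mgp at 416 in cKO and 335 in control, and right of it they are lowest, for Car4 at 296 in cKO and 213 in control.

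Of 18 capillary list members measured in both libraries, 4 were lower in arterial than in remaining cells in both, namely Tfrc, Slc16a1, Car4 and Ivns1abp, beside 1.52% of all genes, and 14 were not. Against venous cells 7 were lower and 1 higher. Of the venous genes outside the rule, 4 of 7 measured were lower than in venous cells, while over remaining cells 1 of 5, Vcam1, was higher and 1, Tmsb10, lower. Car4, a membrane carbonic anhydrase of capillaries, had 296 CPM in arterial cells of cKO and 213 in those of control, against 1492 (cKO) and 1257 (control) in venous cells and 932 (cKO) and 905 (control) in remaining cells. Tfrc, the transferrin receptor that carries iron across the barrier, had 207 (cKO) and 163 (control) in arterial cells, against 496 (cKO) and 265 (control) in remaining cells. Slc16a1, the lactate and ketone transporter gene, had 134 (cKO) and 193 (control) in arterial cells, against 307 (cKO) and 360 (control) in remaining cells. Tmsb10, a thymosin that binds actin monomers, had the largest gap of these, with 317 (cKO) and 247 (control) in arterial cells, against 2166 (cKO) and 1704 (control) in venous cells. Cxcl12, a chemokine gene, was the 1 capillary list member higher in arterial than in venous cells, with 4990 (cKO) and 3661 (control) in arterial cells against 2789 (cKO) and 2253 (control) in venous cells, and its level in remaining cells was 5202 in cKO and 4326 in control.

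Among genes lower in arterial than in venous cells, Cyp2e1, a cytochrome P450, had 0 UMIs in arterial cells of either library and 176 cKO and 233 control UMIs in venous cells, so venous cells were at least 34.8-fold higher in cKO and 49.2-fold higher in control over the floor of 3 counts. Fxyd6, a regulator of the sodium pump, had 3.72 CPM in arterial cells of cKO and 6.53 in those of control, against 73.7 (cKO) and 60.2 (control) in venous cells. Flrt2, an adhesion and guidance protein gene, had 5.31 (cKO) and 15.2 (control) in arterial cells, against 84.1 (cKO) and 100.2 (control) in venous cells. Fxyd6 in both libraries and Flrt2 in cKO lay below the minimum mean. Nrp2, the semaphorin and VEGF-C co-receptor of veins and lymphatics, had 23.9 (cKO) and 15.2 (control) in arterial cells, against 101 (cKO) and 103 (control) in venous cells. Apod, apolipoprotein D, had 122 (cKO) and 94.4 (control) in arterial cells, against 687 (cKO) and 295 (control) in venous cells and 421 (cKO) and 301 (control) in remaining cells. Vcam1, the leukocyte adhesion molecule gene, lay between the classes, with 105 (cKO) and 112 (control) in arterial cells, 321 (cKO) and 194 (control) in venous cells and 31 (cKO) and 23 (control) in remaining cells. Its control ratio against venous cells turned from -0.80 to 0.44 on the log2 scale when each cell was thinned to 1000 UMIs.

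Microglial and oligodendrocyte RNA also made up a smaller share of the UMIs in arterial cells than in remaining endothelial cells. In all, 5 of 5 measured microglial markers and 3 of 4 measured oligodendrocyte markers were lower in both libraries. Astrocyte markers summed to 830 (cKO) and 1731 (control) CPM in arterial cells. They summed to 576 (cKO) and 801 (control) in venous cells and 1515 (cKO) and 1899 (control) in remaining cells. Against venous cells 2 of 4 measured, Slc1a3 and Slc1a2, were higher in both libraries. Over remaining cells 0 of 5 were called the same way in both. Ptgds, made by meningeal, choroid plexus and oligodendroglial cells, had 28.7 CPM (cKO) and 239 CPM (control) in arterial cells, against 512 (cKO) and 884 (control) in remaining cells. These values are shares of the UMIs of a class and not amounts per cell, and arterial cells were deeper than remaining cells. The part of that depth, of doublets and of free RNA in these gaps was not tested. Nor was the part of astrocyte RNA in the arterial ratios, that of Glul among them. Scrublet, a doublet caller, marked 4.88% of cKO and 7.41% of control arterial cells and 7.83% (cKO) and 11.3% (control) of remaining cells. In venous cells it marked 5.96% (cKO) and 12.6% (control).

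Several genes outside the rule followed the number of markers that a cell held, which is drawn in the plot of levels by markers detected. Vegfc had 1.73 CPM just outside the rule, 10.8 with 2 markers, 38.6 with 3 and 111 with 4 or 5 in cKO, and 10, 26.4, 41.5 and 121 in control. Stmn2 had 83.2 just outside and 411 with 4 or 5 markers in cKO, and 74.6 and 343 in control. Both ordered the cells as the rule genes did. Car4 ran the other way, with 740, 451, 259 and 167 in cKO and 592, 325, 221 and 115 in control. Mgp did not follow the order in control, where it had 24.5, 224, 157 and 587, while cKO had 26.9, 63, 431 and 779. Cells with 2 markers thus had less Vegfc and more Car4, in CPM, than cells with more markers, and each step also carries the depth difference given above. Car4 stood higher in venous than in remaining cells, so it does not stand for capillary RNA alone.

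**Figure D2:**
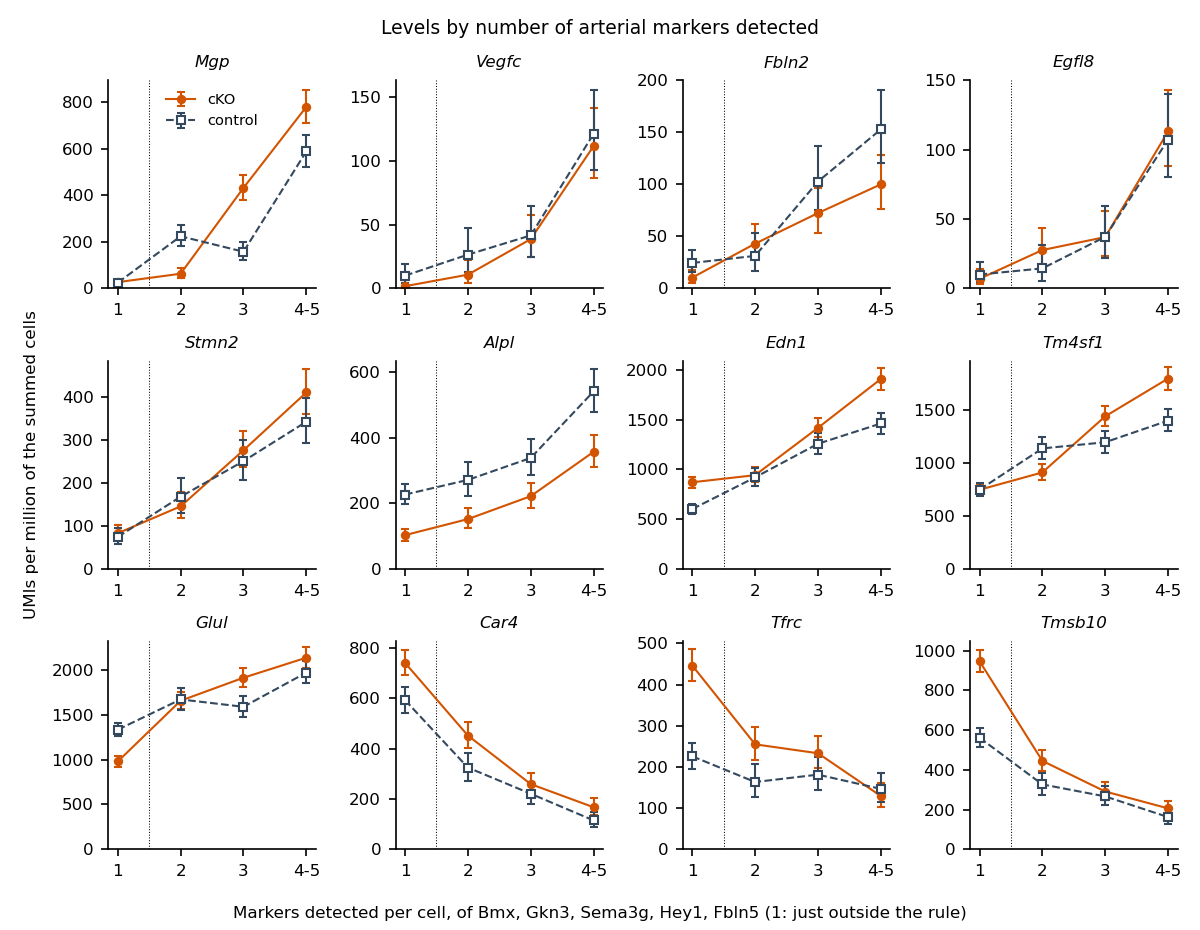
Levels of 12 genes outside the rule, in CPM of the summed cells, by the number of arterial markers a cell held (1 marker: cells just outside the rule, left of the dotted line). Points are cKO (filled) and control (open) sums with exact Poisson 95% intervals for counting error only; Vegfc reaches 111 in cKO and 121 in control at 4 or 5 markers, while Car4 drops to 167 in cKO and 115 in control.

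The genes were also unequally spread over single arterial cells. After each cell was thinned to 1000 UMIs, Mgp was detected in 18.3% of arterial cells in cKO and 17.8% in control, against 2.55% (cKO) and 3.43% (control) of venous cells. It was in 0.344% of cKO and 0.192% of control oligodendrocytes, a type that should lack it, at median depths of 7733 (cKO) and 6714 (control) UMIs before thinning. Unthinned, 43.9% of cKO and 41.5% of control arterial cells held an Mgp UMI. Edn1 was more even, in 57.9% of thinned arterial cells in cKO and 51.9% in control, against 39.6% (cKO) and 22.9% (control) of remaining cells. Alpl differed between libraries, with 14.6% of thinned arterial cells in cKO and 38.5% in control, and with 78% (cKO) and 85.2% (control) unthinned. Car4 was in 17.1% (cKO) and 14.1% (control) of thinned arterial cells, against 71.1% (cKO) and 70.9% (control) of venous cells. No cell was left out by thinning, since every kept cell had at least 1000 UMIs.

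Between genotypes, among the gene lists of function the interferon-response list held the most calls. Of 3495 genes measured in arterial cells, 64 (1.83%) were higher and 90 (2.58%) lower in cKO than in control, and the median log2 ratio of all of them was 0.06. In venous cells 83 (2.43%) were higher and 81 (2.37%) lower, and in remaining cells 41 (1.2%) and 40 (1.17%). The 3 classes come from the same 2 libraries, and their counts depend on their depth. Of 23 arterial list members measured, 0 were higher and 1, Alpl, was lower, a share near that over all genes, with a list median of 0.06. Of 22 tight junction and transport genes and of 18 capillary genes, 0 were called either way, with medians of 0.19 and 0.14. The 13 glycolysis genes and 15 BMP and TGF-beta genes also had 0 calls.

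**Figure D3:**
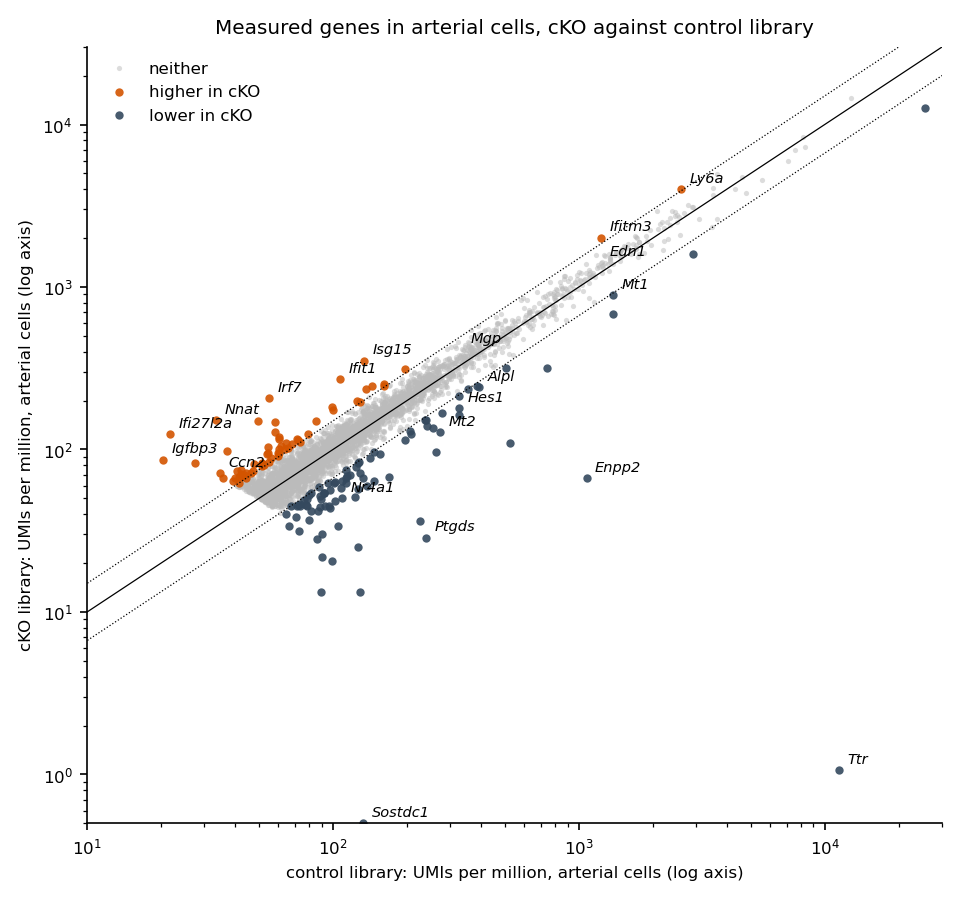
Genes measured in arterial cells, in CPM in cKO (vertical) against control (horizontal), both on log axes, without the rule genes. The solid line is equality and the dotted lines 1.5-fold; coloured points are the genes counted as higher or lower, with Irf7 and Isg15 above the band, Ttr far below it, Mgp and Edn1 inside it, and Sostdc1, which had 0 UMIs in cKO, set on the lower edge.

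Interferons make cells transcribe a shared set of antiviral and immune genes, through a transcription factor complex that holds Irf9 and an upstream element called the interferon-stimulated response element. Of 38 listed interferon-response genes, 29 were measured in arterial cells, of which 16 were higher and 0 lower in cKO, with a list median of 0.61 (0.36 to 0.94) beside 0.06 for all genes. With each cell thinned to 1000 UMIs, 10 members were higher. The interferon list too was chosen with earlier results of these data known, so its counts and median are a description. The same list had 18 of 27 measured members higher in venous cells, with a median of 0.81, and 12 of 25 in remaining cells, with a median of 0.51. Members were thus higher in each endothelial class of the cKO library, and the difference between classes was not tested. The promoters of 4 of these genes are shown because each holds the core of that element. The sequences are RefSeq promoters on GRCm38.p6, each 250 bases before to 50 bases after the gene start and printed along the gene's strand, with the core (GAAA, any 2 bases, GAAA) or its reverse complement in capitals. Ifit1 lies at chr19:34640639-34640938 on the plus strand, Ifit3 at chr19:34583279-34583578 on the plus strand, Isg15 at chr4:156200769-156201068 on the minus strand and Rsad2 at chr12:26456403-26456702 on the minus strand.
Ifit1: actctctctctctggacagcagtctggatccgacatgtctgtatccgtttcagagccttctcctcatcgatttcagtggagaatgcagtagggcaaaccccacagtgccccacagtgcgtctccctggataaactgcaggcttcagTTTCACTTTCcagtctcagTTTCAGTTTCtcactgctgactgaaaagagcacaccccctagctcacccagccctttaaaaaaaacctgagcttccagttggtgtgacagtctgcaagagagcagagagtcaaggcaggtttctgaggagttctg
Ifit3: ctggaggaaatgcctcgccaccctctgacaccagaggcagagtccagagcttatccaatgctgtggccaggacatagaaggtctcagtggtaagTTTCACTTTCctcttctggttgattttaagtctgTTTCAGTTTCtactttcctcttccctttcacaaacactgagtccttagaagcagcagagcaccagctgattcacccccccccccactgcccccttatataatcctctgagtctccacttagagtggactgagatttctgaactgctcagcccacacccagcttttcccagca
Isg15: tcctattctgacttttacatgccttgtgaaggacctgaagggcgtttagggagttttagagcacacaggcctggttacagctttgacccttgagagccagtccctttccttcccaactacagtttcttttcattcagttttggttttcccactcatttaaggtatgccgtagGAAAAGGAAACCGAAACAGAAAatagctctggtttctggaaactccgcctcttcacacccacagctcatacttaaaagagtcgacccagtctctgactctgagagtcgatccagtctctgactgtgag
Rsad2: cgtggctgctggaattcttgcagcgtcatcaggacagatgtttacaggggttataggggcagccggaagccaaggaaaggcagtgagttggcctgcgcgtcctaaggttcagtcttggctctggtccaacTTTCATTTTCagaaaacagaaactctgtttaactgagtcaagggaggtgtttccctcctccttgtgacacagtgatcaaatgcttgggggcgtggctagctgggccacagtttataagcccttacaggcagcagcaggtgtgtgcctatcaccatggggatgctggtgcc

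Ifit1 and Ifit3 each held 2 matches, on the reverse complement, starting 104 and 85 bases and 156 and 122 bases before the gene start. Isg15 held 3 overlapping matches starting 78, 72 and 66 bases before it, and Rsad2 held 1 at 120 bases. Either strand was searched, and 14 of 28 interferon list promoters with a RefSeq entry held the core (50%), against 943 of 27025 promoters of the same length (3.49%). A match describes the letters and not a used site.

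Among the sensors and transcription factors, Irf7, the master factor of type I interferon genes, had 206 CPM in cKO arterial cells and 55.2 in control arterial cells, a log2 ratio of 1.90 (1.54 to 2.28). It was found in 119 of 164 cKO and 47 of 135 control cells. Irf9, the DNA-binding subunit of the interferon-activated complex, had 115 in cKO and 60.3 in control. Both factors were counted as higher in cKO.

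Among the effectors, Isg15, a ubiquitin-like protein gene whose promoter is printed above, had 352 CPM in cKO and 134 in control, a log2 ratio of 1.39 (1.15 to 1.63). Ifit1, whose product binds viral RNA, had 271 in cKO and 107 in control, a log2 ratio of 1.34 (1.08 to 1.62). Both were found in a larger share of arterial cells in cKO. Thinned to 1000 UMIs, Isg15 was in 28.7% of cKO and 8.15% of control arterial cells and Ifit1 in 26.8% in cKO and 8.15% in control, with at most 0.515% of oligodendrocytes. Unthinned, Isg15 was in 81.7% (cKO) and 49.6% (control) of arterial cells and Ifit1 in 70.1% (cKO) and 40.7% (control). Rsad2, the antiviral enzyme viperin, had 247 in cKO and 144 in control, a log2 ratio of 0.77. Ifit3 had 149 in cKO and 49.4 in control, and its neighbour Ifit3b had 66.9 in cKO and 17.4 in control, and since these are near-identical copies the split between them is uncertain. Ifi27l2a, an interferon-inducible mitochondrial protein gene, had the largest list ratio, with 124 (cKO) and 21.8 (control) and a log2 ratio of 2.51 (1.96 to 3.11).

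Membrane genes of the list were far more abundant and differed less. Ifitm3, which restricts viral entry, had 2016 CPM in cKO arterial cells and 1230 in control arterial cells, a log2 ratio of 0.71. Ly6a, the surface protein Sca-1 of mouse brain endothelium, had 3986 in cKO and 2610 in control, a log2 ratio of 0.61. MHC class I genes, which present peptides to cytotoxic T cells, had a smaller median than the interferon list. Of 8 measured, 1, H2-T23, was higher, with 234 (cKO) and 136 (control), and the median was 0.27. Of 7 listed class II genes 0 reached the minimum.

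Summed per cell, interferon list UMIs made up a median of 122 per 10000 UMIs of a cell in cKO arterial cells (quartiles 98.9 and 144) and 85.6 in control arterial cells (quartiles 66.1 and 103). The cell ranges overlapped widely, at 18 to 373 in cKO and 8.2 to 210 in control. The medians were 106 in cKO and 70.5 in control for venous cells, and 107 (cKO) and 67.1 (control) for remaining cells. Abundant members such as Ly6a and Ifitm3 weigh most in this sum. Gene by gene, the list median of arterial over venous cells was 0.0041 in cKO and 0.14 in control, with 0 members called in either, and over remaining cells it was 0.20 with 2 of 32 higher in cKO and 0.16 with 1 of 24 higher in control.

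**Figure D4:**
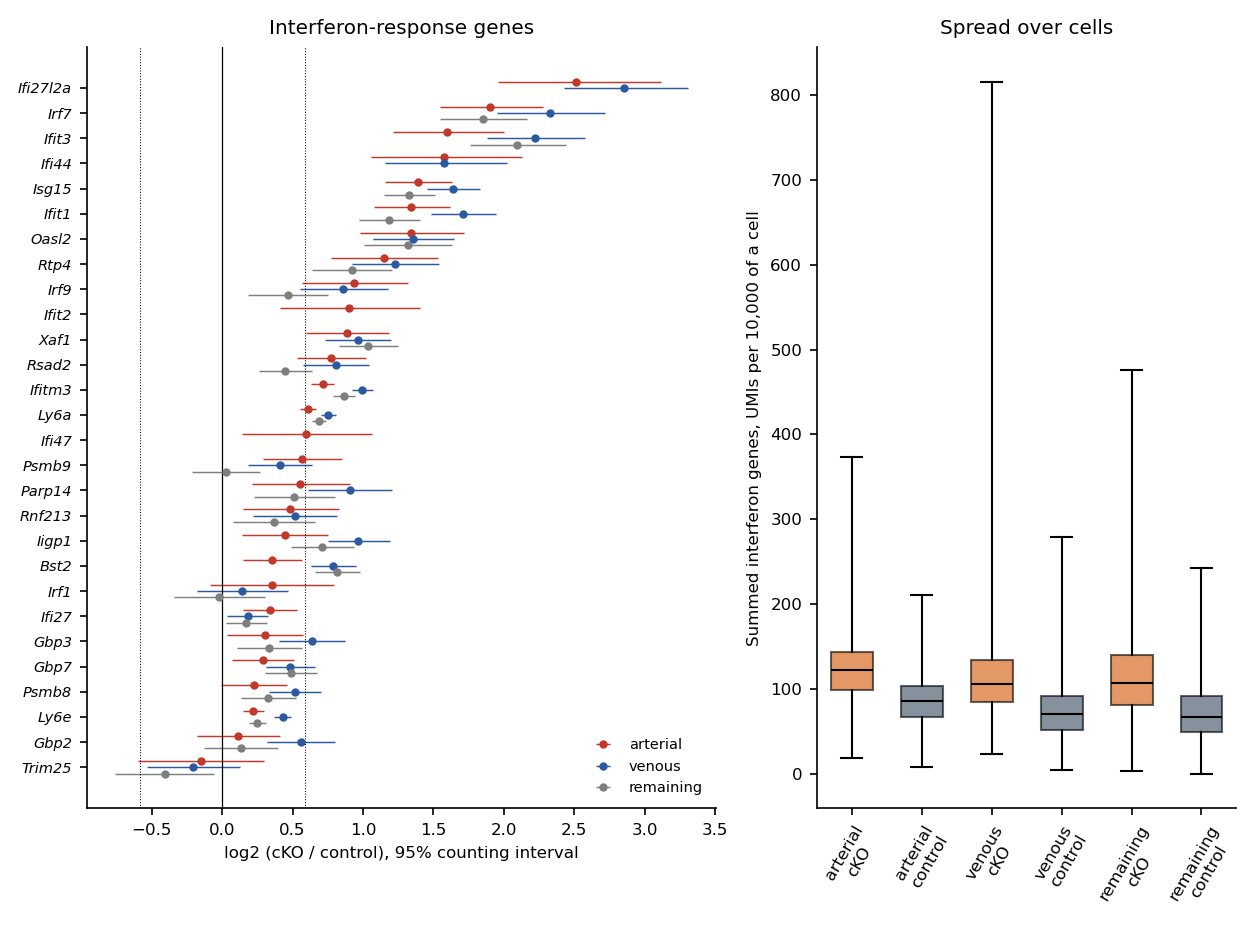
Left, log2 ratio of cKO over control for 28 interferon list genes measured in arterial cells, with 95% counting intervals. Arterial cells are red and, where the gene was measured, venous cells blue and remaining cells grey. Dotted lines mark 1.5-fold. Right, summed interferon list UMIs per 10000 UMIs of a cell, as boxes of the quartiles with whiskers to the lowest and highest cell; the arterial medians are 122 in cKO and 85.6 in control.

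Outside interferon, Igfbp3, a secreted binding protein of insulin-like growth factors, had 86.6 CPM in cKO arterial cells and 20.3 in control arterial cells, a log2 ratio of 2.09 (1.51 to 2.72), and was found in 62 (cKO) and 16 (control) cells. In remaining cells it stood at 7.23 in cKO and 68.6 in control, where 57 of 164 UMIs came from 1 cell. Ier3, an immediate early gene of stress responses, had 120 in cKO and 60.3 in control, and Ccn2 had 71.2 in cKO and 34.8 in control. Nnat, an imprinted gene of neural development, had 151 in cKO and 33.4 in control, but 246 of its 284 cKO UMIs came from 1 cell, and without the top cell of each library its log2 ratio was -0.47.

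Among the lower genes, Alpl had 242 CPM in cKO arterial cells and 393 in control arterial cells, a log2 ratio of -0.70 (-0.88 to -0.52), and its ratio was -1.06 in venous cells and -1.11 in remaining cells. Hes1, a Notch target repressor, had 181 in cKO and 326 in control, a log2 ratio of -0.85 (-1.06 to -0.65). It was the 1 call among 8 measured Notch genes, whose median was -0.11, and its ratios, -0.25 in venous cells and -0.37 in remaining cells, did not reach 1.5-fold. Gja1, the gap junction gene connexin 43, had 131 in cKO and 206 in control. Nr4a1, an orphan receptor of the immediate early class, had 50.5 in cKO and 109 in control. Hspa1b, an inducible heat shock chaperone, had 88.7 in cKO and 142 in control. Of 3 measured metallothioneins, which bind zinc and copper, Mt1 had 893 in cKO and 1382 in control and Mt2 had 129 in cKO and 273 in control, both lower, whereas Mt3 had 601 in cKO and 470 in control and was called neither way. The top cKO cell of each gene held 616 of 1682 Mt1 UMIs and 77 of 242 Mt2 UMIs. Over the alternatives the log2 ratio ranged from -1.73 to -0.24 for Mt1 and from -2.78 to -0.47 for Mt2.

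The largest negative ratios were in genes of other cell types. Ttr, which encodes transthyretin and is made by choroid plexus epithelium, had 1.06 CPM in cKO arterial cells and 11399 in control arterial cells, where it passed 1% of the UMIs in 2 cells. The top control cell, at 23.3% Ttr, held 13992 of the 15701 control UMIs of the gene, while the median control cell was at 0.0727%. Summed over the list, choroid plexus markers stood at 74.9 in cKO and 12710 in control, mostly Ttr of that cell, with Kl and Kcnj13 at 0 in cKO. Enpp2, made by choroid plexus and oligodendrocytes, had 66.9 in cKO and 1075 in control, a log2 ratio of -4.01 that was -1.10 without the 2 cells over 1% Ttr. Igfbp2 had 13.3 in cKO and 129 in control and Ecrg4 had 36.1 in cKO and 225 in control, with 67 of 68 cKO Ecrg4 UMIs in 1 cell, and the direction of both turned under a stricter mitochondrial limit.

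Marker sums of other cell types were lower in cKO arterial cells for several types and higher for others. Astrocyte markers summed to 830 CPM in cKO and 1731 in control, with 5 of 5 measured members lower. Oligodendrocyte markers summed to 1078 in cKO and 1745 in control, and microglial markers to 368 in cKO and 516 in control. The fibroblast list summed to 33.5 in cKO and 248 in control, nearly all of it Ptgds, which made up 54 of 63 UMIs in cKO and 329 of 342 in control, and Dcn, Lum, Col1a1 and Col3a1 were at 0 in control. Mural markers ran the other way, at 558 in cKO and 447 in control, with Cnn1 at 0 in both libraries and Kcnj8 at 0 in cKO, as did ependymal markers, at 274 in cKO and 163 in control. Of the 16 mural markers, 5 are genes of the endothelial gate, Kcnj8 among them, and a cell could hold at most 1 of these. The mural sum is therefore partly set by the selection. Only 1 mural marker was measured, and it was called neither way. Proliferation markers stood at 63.7 in cKO and 58.1 in control. Gm42418, which overlaps ribosomal RNA, had 12628 in cKO and 25549 in control. Gja1, Mt1 and Mt2 are also astrocyte genes, and the part of other cells' RNA in these values and in the interferon difference was not tested.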

How the data were processed

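Single-cell RNA-seq libraries of 1 cKO and 1 control host were read as deposited UMI counts per gene and barcode for 32285 genes. The authors aligned reads to mm10 with Cell Ranger 7.1.0, per the submitters' processing notes; its annotation release and handling of introns were not given in the sources used here. Cells were kept with at least 1000 UMIs, at least 500 genes and at most 10% mitochondrial UMIs, and endothelial cells additionally had at most 1% haemoglobin UMIs. No cells were removed as doublets; Scrublet calls were left out as an alternative. Oligodendrocytes, used for background shares, had at least 5 of 8 markers and at most 1 of the 6 endothelial genes. Counts were summed per class and library and scaled to counts per 1000000 (CPM); log2 ratios have exact conditional 95% intervals, levels exact Poisson intervals and shares Clopper-Pearson intervals. These cover counting error only. No test was run, since cells are not replicates. The ratio step was tested on simulated Poisson counts with known fold changes. These counts had no spread between cells. The simulation therefore checks the calculation and not the calls of genes held mostly by few cells.

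Genes named are the 10 highest and 10 lowest ratios of each comparison with at least 50 CPM, 30 UMIs and 10 cells in 1 sum, up to 5 members of each of the 21 gene lists, the rule genes and Plxnb2; for arterial contrasts the smaller ratio of both libraries ranked genes. Mitochondrial, ribosomal, haemoglobin, immunoglobulin, predicted and sex-linked genes stayed out of the ranks. Gm42418 falls outside that rule and was chosen after its values were seen. Members and lists were chosen with earlier results of these data known. Gene coordinates are from an annotation on GRCm38, the assembly of mm10. Alternatives changed the cell limits, marker numbers, depth by thinning, scaling, cell weighting, minimum level and the top cell of each gene. Python 3.11.15, numpy 2.4.6, scipy 1.17.1, pandas 2.3.3 and scanpy 1.11.5 were used. A few members of the lists are counted in the totals but not reported here by name.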

Additional observations from a re-analysis of the deposited data

How the results depend on the processing

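Of 172 single-gene ratios, 29 kept their direction and size under every alternative run, 138 moved by more than their limit under at least 1, and 5 turned sign. Counted by alternative, 407 values of the 32 main results stayed within their limit, 24 did not and 1 turned sign, and for single genes the numbers were 1997, 400 and 8. For main results a change of sign was counted only where the interval of the main setting excluded 0. Others changed sign without being counted. The arterial share difference reached -0.45 percentage points, the arterial list median of cKO over control -0.11 and the interferon median over venous cells in cKO -0.031. Of 64 genes higher and 90 lower in cKO arterial cells, the numbers were 97 higher with 3 arterial markers asked for, 104 higher with no mural marker allowed, 59 lower without Scrublet calls, and 293 higher and 664 lower with no minimum level. Of 57 genes higher and 49 lower over remaining cells in both libraries, there were 94 and 81 with 3 arterial markers, 89 lower with 3 endothelial markers, 19 lower after thinning to 1000 UMIs, and 189 and 255 with no minimum. Of 70 higher and 61 lower against venous cells, there were 40 and 29 after thinning and 246 and 165 with no minimum. Interferon list members higher in cKO numbered 10 after thinning, against 16. The interferon median over remaining cells in cKO was 0.064 after thinning and 0.065 with cells weighted equally, against 0.20, and over venous cells in control it turned to -0.022 after thinning, against 0.14. The metallothionein median was -2.10 with 3 arterial markers and -1.09 with equal weights, against -0.63. Arterial list members higher over remaining cells numbered 20 in cKO and 22 in control with no minimum, against 13 and 14; over venous cells 21 in cKO with no minimum, against 12, and 9 in control after thinning, against 15. Fewer UMIs after thinning and more genes with no minimum are part of those settings' construction; for the others the cause was not tested. Single genes that turned were Nnat (-1.94 with 3 arterial markers, -0.43 with no mural marker, -0.47 without the top cell), Igfbp2 (0.83 at a mitochondrial limit of 5%), Ecrg4 (0.80 at that limit, 0.55 without cells over 1% Ttr), Plk2 in cKO over control (0.041 after thinning, against -0.64) and Vcam1 against venous cells in control (0.44 after thinning). Median-based scaling shifted the median of all genes by 0.02 to 0.06 on the log2 scale. The arterial share, cKO minus control, ranged from -0.45 to 2.80 percentage points. Leaving out cells over 1% Ttr and dropping Vwf from the venous markers were chosen after seeing the data. No paired analysis was possible because there is 1 library per genotype, and no replicate could be left out. Counts of genes were not computed with cells weighted equally.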
